A study of Mus musculus with 4 samples.

Results

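MicroRNA export, dicing and loading are served by 8 mouse genes described here, chosen by symbol: Xpo5, Dicer1, Tarbp2, Prkra, Ago1, Ago2, Ago3 and Ago4. Earlier results of these data were known when the genes were chosen. All 8 were among the 43629 Ensembl genes counted, and all 8 passed the filter on low counts that left 17022 genes for testing. Counts came from poly(A) RNA of mouse embryonic stem cells of 129/Ola background, derived from blastocysts and kept in serum plus LIF. The tested cells were Drosha knockouts made with paired CRISPR/Cas9 cuts, with 1 library for each of 2 deletions. KO1 lacks the proline-rich region of Drosha and KO2 the region rich in arginine and serine, and both are labelled passage 7 and carry an unexplained mark, d5, in their titles. The controls were 2 re-used libraries of wild-type E14, a common mouse embryonic stem cell line, at passage 33 (WT1) and passage 42 (WT2). Each deletion is represented by 1 library, so the difference between alleles has no replicate. Genotype, passage and the origin of the libraries coincide and cannot be told apart.

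DROSHA and its partner DGCR8 cut primary microRNA transcripts in the nucleus, and the resulting hairpins are carried to the cytoplasm by exportin-5, the product of Xpo5, together with RAN. DICER1 then trims the hairpin to a duplex, helped by the double-stranded RNA binding proteins TRBP (Tarbp2) and PACT (Prkra), and an Argonaute protein keeps 1 strand as its guide. The Argonautes share most microRNAs, and AGO2 is the mammalian member best known for cutting a fully paired target. The comparison asks whether the mRNAs of these later steps differ in cells labelled as knockouts of Drosha, a gene of the first step. No microRNA or protein values were used here.

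Library totals ran from 29264632 to 42322129 counts, and 1 count was worth 0.0236 to 0.0342 CPM, the count scaled to library size. Knockout libraries differed from each other far less than the wild types did, with a chi-square per degree of freedom of 2.26 against 167, and both pairs differed by more than sampling noise. The 2 knockout libraries carry different deletions and the 2 wild types differ in passage, so no library is a technical repeat of another. Every p-value below reflects the spread between such libraries, in which culture, passage, deletion and technical differences cannot be told apart. All 9 stem cell markers were present in every library, at 48.4 CPM or more. Summed markers of endoderm (8 genes) were at 49.4 to 50.3 CPM in knockout and 193 to 337 CPM in wild-type libraries, and Afp was at 0 in both wild types. Those of fibroblasts or feeders (8 genes) were at 164 to 174 and 97.3 to 120 CPM, with Dcn, Postn and Lum at 0 in both wild types. Neurectoderm markers (4 genes) were at 102 CPM in both knockout libraries and 46.5 to 55.7 CPM in wild-type libraries, and trophoblast markers (4 genes) at 87.1 to 87.8 and 42.1 to 48.3 CPM. The part of these other markers in the values below was not tested. Drosha was at 158 CPM in each knockout library, with 364 (WT1) and 357 (WT2) CPM in wild type, and gene counts do not show which region was deleted.

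Fitted levels of the export, dicing and loading mRNAs in knockout cells ran from 0.585-fold (Ago3) to 2.0-fold (Tarbp2) of wild type. None of the 8 genes passed in knockout over wild-type cells (edgeR quasi-likelihood test, Benjamini-Hochberg adjusted p under 0.05 over all genes), where 5.45% of all genes tested passed (3.51% higher and 1.94% lower). The smallest edgeR adjusted p of any gene was 0.0482, so every call lay just under the threshold. At an unadjusted p under 0.05 there were 3 of 8, Dicer1, Xpo5 and Ago3, all lower, where 37.1% of all genes reached that level. DESeq2 called 1 of the 8, Ago3, with 22.7% of its genes called. Values of the groups did not overlap for 7 of the 8 genes, 3 higher and 4 lower, but the same held for 71.2% of all genes tested. The 8 genes had a median log2 fold change of -0.32 (3 above and 5 below 0), and all genes tested had a median of -0.02. The median of the 8 was -0.09 without WT1, and once trends with GC content and length were taken out it was -0.04, as over all genes. The count depended on the spread between the wild types: without WT1 6 of the 8 genes passed, with 77.7% of all genes tested, and without WT2 7 did, with 68.0% of all genes. In these fits the single remaining wild-type library is assumed to vary as little as the knockout pair. In bulk RNA, fewer cells of a type and less RNA per cell cannot be told apart.

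**Figure D1:**
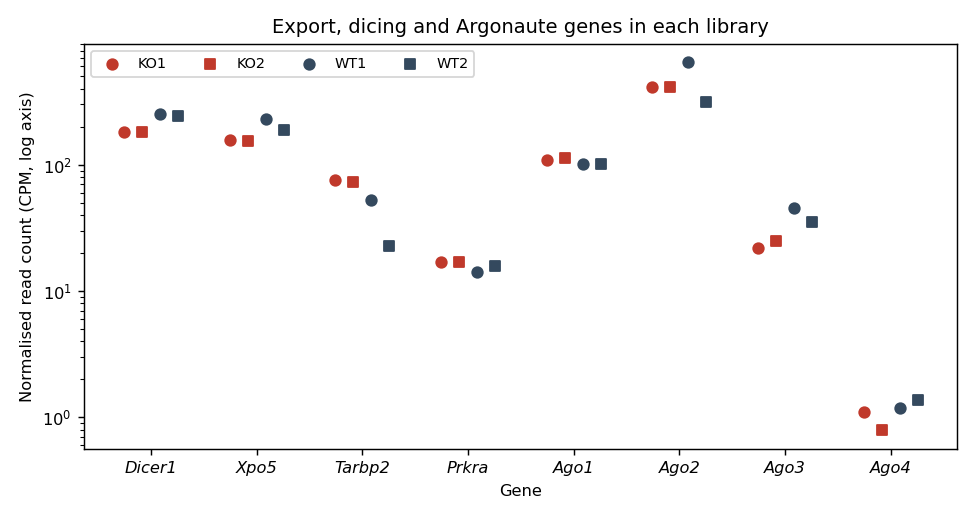
Normalised read counts of the 8 genes (TMM-scaled CPM, log axis) in KO1, KO2, WT1 and WT2, 1 point per library. The knockout points nearly coincide for most genes, and the wild-type points of Ago2 (646 and 315 CPM) and Tarbp2 (52.1 and 22.6 CPM) lie far apart.

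Promoter sequence was at hand for 7 of the 8 genes, all but Ago2 (RefSeq, build GRCm38.p6, the same chromosome coordinates as mm10). The 150 bases before the annotated start are shown for Xpo5, Dicer1 and Ago3, the 3 genes with an unadjusted p under 0.05, for Tarbp2 as the gene with the highest fitted fold change, and for Ago1 as the tandem neighbour of Ago3. Capitals mark GC boxes (GGGCGG) and CCAAT boxes (CCAAT), each on either strand.
Xpo5, chr17:46202661-46202810, plus strand: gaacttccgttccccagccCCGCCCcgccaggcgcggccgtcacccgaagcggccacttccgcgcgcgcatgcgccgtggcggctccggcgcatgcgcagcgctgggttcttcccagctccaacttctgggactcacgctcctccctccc
Dicer1, chr12:104751953-104752102, minus strand: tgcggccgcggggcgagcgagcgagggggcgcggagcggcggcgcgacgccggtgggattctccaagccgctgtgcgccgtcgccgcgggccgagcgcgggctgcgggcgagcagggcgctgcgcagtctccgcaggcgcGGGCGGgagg
Tarbp2, chr15:102518042-102518191, plus strand: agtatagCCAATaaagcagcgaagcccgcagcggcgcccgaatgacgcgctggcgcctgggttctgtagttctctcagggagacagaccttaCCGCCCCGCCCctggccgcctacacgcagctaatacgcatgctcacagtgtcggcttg
Ago3, chr4:126429543-126429692, minus strand: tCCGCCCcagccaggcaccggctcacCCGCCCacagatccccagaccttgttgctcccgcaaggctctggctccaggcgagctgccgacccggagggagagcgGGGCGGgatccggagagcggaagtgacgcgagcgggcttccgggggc
Ago1, chr4:126468584-126468733, minus strand: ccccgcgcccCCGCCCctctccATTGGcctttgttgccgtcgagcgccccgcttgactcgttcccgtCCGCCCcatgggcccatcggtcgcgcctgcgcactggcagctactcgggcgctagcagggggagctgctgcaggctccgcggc
In the 250 bases before the start, a GC box occurred in 7 of 7 windows, with 1 to 5 matches each, and in 32.7% of 32817 promoter windows of the same length in the table. A CCAAT box occurred in 3 of 7, those of Dicer1, Tarbp2 and Ago1, and in 33.8% of all windows. The TATA box letters TATAAA were in 0 of 7 and in 12.4% of all windows, and the E-box letters CACGTG, which read the same on both strands, were in 0 of 7 and in 6.0%. Matches of different motifs can share letters, and GC boxes can overlap each other. GC content of the windows ran from 60.0% (Tarbp2) to 85.6% (Ago4), and all windows had a median of 52.4%. The observed over expected CpG ratio ran from 0.60 (Prkra) to 1.10 (Dicer1), where the median of all windows was 0.37.

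Xpo5 (ENSMUSG00000067150, chromosome 17, 46202782 to 46243598, plus strand, coordinates of mm10), the export receptor gene, had lower values in both knockout libraries. Its normalised counts were 156.5 (KO1) and 155.5 (KO2) CPM, with 228 (WT1) and 189 (WT2) CPM in wild type. The knockout values nearly coincided and lay below both wild types, which themselves differed by 0.28 on the log2 scale (WT2 lower). The mean was 156 ± 0.733 CPM in knockout and 208.5 ± 28.1 CPM in wild-type cells (SD, n = 2 each). The fitted log2 difference of -0.42 ± 0.15 (SE) did not pass (edgeR adjusted p = 0.122). Tested genes whose starts lie within 5 Mb of Xpo5, 97 in number, had a median log2 fold change of 0.49, opposite in sign to Xpo5. The microRNA gene Mir693 lies inside Xpo5 on the same strand and had 0 (KO1) and 1 (KO2) counts, with 3 (WT1) and 0 (WT2) in wild type, where Xpo5 had 4828 to 9116.

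Dicer1 (ENSMUSG00000041415, chromosome 12, 104687742 to 104751952, minus strand) encodes the nuclease that cuts the exported hairpin. KO1 held 181 CPM and KO2 180.2 CPM of it, while WT1 held 253 CPM and WT2 241 CPM. Both knockout libraries lay below both wild types, and neither pair was far apart. Dicer1 averaged 181 ± 0.538 CPM in knockout and 247 ± 8.53 CPM in wild-type cells (SD, n = 2 each), or 0.730-fold. The log2 fold change of -0.45 ± 0.11 (SE) did not pass (edgeR adjusted p = 0.0742, and 0.110 in DESeq2). Once the smooth trends of each library with GC content and length had been taken out, below called trend removal, the log2 fold change was -0.11 ± 0.09 (edgeR adjusted p = 0.510), and the fitted trend at the GC content (47.3%) and exon length (16750 bases) of Dicer1 was itself -0.34 for knockout over wild type. The 78 tested genes within 5 Mb had a median of 0.10.

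Tarbp2 (ENSMUSG00000023051, chromosome 15, 102518192 to 102523676, plus strand), the gene of the DICER1 partner TRBP, had the highest fitted value of the 8. KO1 and KO2 stood at 76.2 and 72.9 CPM, WT1 and WT2 at 52.1 and 22.6 CPM. Both knockout libraries were above both wild types, but the wild types differed by 1.20 on the log2 scale, more than the knockouts differed from WT1. The mean was 74.6 ± 2.29 CPM in knockout and 37.4 ± 20.9 CPM in wild-type cells (SD, n = 2 each). The log2 fold change of 1.00 ± 0.43 (SE) did not pass (edgeR adjusted p = 0.171), and it was 1.72 without WT1 and 0.52 without WT2. Trend removal left 0.62 ± 0.36. Among its transcripts, 14.3% of the 50-base stretches also occur in other annotated genes, mainly the processed pseudogene Gm18584, which is not among the genes counted. Reads from these stretches may have been lost or shared, and the counting options for them are not given in the sources used here.

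Prkra (ENSMUSG00000002731, chromosome 2, 76629898 to 76648015, minus strand), the gene of PACT, had 16.95 CPM in either knockout library, with 14.2 (WT1) and 15.8 (WT2) CPM in wild type. The knockout values nearly coincided and lay slightly above both wild types. Prkra had a log2 fold change of 0.18 ± 0.16 by edgeR (adjusted p = 0.439), which became 0.38 ± 0.12 after trend removal (edgeR adjusted p = 0.172). Per length, Tarbp2 over Prkra was 2.00 (KO1) and 1.92 (KO2), with 1.64 (WT1) and 0.639 (WT2) in wild type, so both knockout ratios lay above both wild-type ones and WT2 stood apart. The ratio of Xpo5 over Dicer1 per length moved little by comparison, at 2.11 in both knockout libraries and at 2.20 (WT1) and 1.91 (WT2) in wild type.

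**Figure D2:**
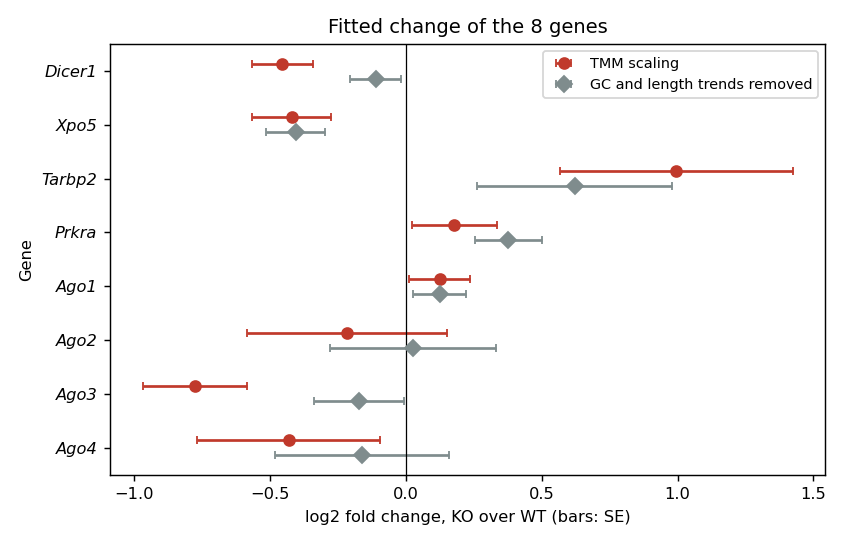
Fitted log2 fold change of the 8 genes, knockout over wild type, with bars of 1 SE, under TMM scaling (circles) and with the GC and length trends of each library removed (diamonds). Dicer1 goes from -0.45 to -0.11 and Ago3 from -0.77 to -0.17 when trends are removed, and Xpo5 stays at -0.42 and -0.41.

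Argonaute mRNA was mostly Ago2 and Ago1 in every library. Ago2 (ENSMUSG00000036698, chromosome 15, 73095844 to 73184935, minus strand), the gene of the slicing Argonaute, reached 413 (KO1) and 414 (KO2) CPM, with 646 (WT1) and 315 (WT2) CPM in wild type. Its groups overlapped, with both knockout libraries between the wild types. The log2 fold change was -0.22 ± 0.37 (edgeR adjusted p = 0.693). Its sign rested on the wild-type library used, since it was -0.64 without WT2 and 0.39 without WT1, and trend removal brought it to 0.03 ± 0.31. The last 1711 bases of the locus overlap Chrac1 on the opposite strand. Chrac1 had 975 (KO1) and 1384 (KO2) counts, with 824 (WT1) and 720 (WT2) in wild type. Ago2 had 12755 (KO1) and 18365 (KO2), with 25785 (WT1) and 11345 (WT2).

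Ago1 (ENSMUSG00000041530, chromosome 4, 126435012 to 126468583, minus strand) varied little between libraries. Its counts came to 108 (KO1) and 112 (KO2) CPM, with 101.2 (WT1) and 101.0 (WT2) CPM in wild type. Both knockout values were above the wild types by a small margin, with a fitted log2 difference of 0.12 ± 0.11 (edgeR adjusted p = 0.448) that trend removal left at 0.12 ± 0.10. Of its sequence, 125 of 8158 distinct 50-base stretches, or 1.53%, also occur in Ago3 or Ago2 transcripts.

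Ago3 (ENSMUSG00000028842, chromosome 4, 126331704 to 126429556, minus strand), next to Ago1, had the lowest fitted value of the 8. It was measured at 21.9 (KO1) and 24.95 (KO2) CPM, with 45.3 (WT1) and 34.9 (WT2) CPM in wild type. Every knockout value was below every wild-type value. The mean was 23.45 ± 2.13 CPM in knockout and 40.1 ± 7.34 CPM in wild-type cells (SD, n = 2 each), or 0.585-fold. The log2 fold change of -0.77 ± 0.19 (SE) did not pass in edgeR (adjusted p = 0.0742) and passed in DESeq2 (-0.80 ± 0.28, adjusted p = 0.0239). Ago3 has the longest gene model among the Argonautes (16571 exon bases) and the lowest GC content of the 8 (41.8%), and the fitted GC and length trend at these values was -0.60. Trend removal left -0.17 ± 0.17 (edgeR adjusted p = 0.558). Ago4 (ENSMUSG00000042500, chromosome 4, 126489541 to 126533472, minus strand) had the fewest counts of the 8, with 34 (KO1) and 35 (KO2) counts and, in wild type, 47 (WT1) and 49 (WT2). That is 1.10 (KO1) and 0.789 (KO2) CPM, with 1.18 (WT1) and 1.36 (WT2) CPM in wild type. Its log2 fold change did not pass, at -0.43 ± 0.34 (edgeR adjusted p = 0.392), and was -0.16 ± 0.32 after trend removal, -0.68 without KO1 and -0.19 without KO2.

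Ago3, Ago1 and Ago4 lie in that order in a tandem array on 1 strand of chromosome 4, and their log2 fold changes differed in sign. Of the nearest tested protein-coding genes, Adprhl2 and Tekt2 before Ago3 had log2 fold changes of 1.19 ± 0.30 (edgeR adjusted p = 0.0759) and 0.77 ± 0.34 (adjusted p = 0.179). Clspn and 5730409E04Rik after Ago4 were at -0.46 ± 0.16 (edgeR adjusted p = 0.120) and 0.03 ± 0.26 (adjusted p = 0.941). None of these 4 passed in edgeR, and their fitted values lay on both sides of 0. Adprhl2 passed in DESeq2 (1.17 ± 0.34, adjusted p = 0.00522) and was at 0.27 ± 0.18 after trend removal. The 137 tested genes within 5 Mb of the array had a median of 0.06 to 0.07, depending on the Argonaute taken as the centre.

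Levels were compared between genes only per length, as CPM per kilobase of annotated exons (RPKM). Ago2 led in KO1 and KO2 with 29.5 RPKM in each, followed by Xpo5 (22.7 ± 0.107, SD, n = 2), Tarbp2 (16.4 ± 0.503), Ago1 (13.6 ± 0.333), Dicer1 (10.8 ± 0.0321) and Prkra (8.36 ± 0.000857). Ago3 (1.42 ± 0.128) and Ago4 (0.136 ± 0.0319) were far lower. In wild-type cells the means were 34.2 ± 16.7 for Ago2, 30.4 ± 4.09 for Xpo5, 14.8 ± 0.509 for Dicer1 and 12.4 ± 0.017 for Ago1 (SD, n = 2 each). Below them came Tarbp2 (8.21 ± 4.58), Prkra (7.39 ± 0.557), Ago3 (2.42 ± 0.443) and Ago4 (0.183 ± 0.0187). Neighbours in this order separated in both knockout libraries. In the wild types Ago2 and Xpo5 could not be ordered, nor Tarbp2 and Prkra, since each pair changed places between WT1 and WT2. The order also depends on the length used, most of all for Tarbp2, whose longest protein-coding transcript has 1523 bases and whose annotated exons cover 4549. By the shorter length Tarbp2 would be at 48.9 RPKM in knockout and 24.5 RPKM in wild-type cells, and it would then be the highest of the 8 in both knockout libraries. By the longest protein-coding transcript Xpo5 (30.8 in KO1 and 30.6 in KO2) would also stand just above Ago2 (30.0 in each), and Dicer1 (18.4 and 18.3) above Ago1 (14.98 and 15.51).

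Shares within the Argonaute family showed the same spread between the wild types. Ago2 made up 66.5% of the summed Argonaute RPKM (KO1) and 65.7% (KO2), with 75.0% (WT1) and 60.4% (WT2) in wild type. The knockout libraries lay between the wild types, and so did those of Ago1, at 30.1% (KO1) and 30.7% (KO2), with 20.3% (WT1) and 33.4% (WT2). Ago3 took 2.99% (KO1) and 3.35% (KO2), with 4.45% (WT1) and 5.67% (WT2) in wild type, the only share of the 4 whose groups did not overlap. The mean difference was -1.89 percentage points (two-sided exact permutation test over libraries, p = 0.333, the smallest that 2 against 2 can give). After trend removal it was -0.661 points, still without overlap, and the difference for Ago1 was 0.33 points in place of 3.56. Ago4 took 0.253% to 0.358% in knockout and 0.276% to 0.527% in wild-type libraries. The sum itself was 44.3 (KO1) and 44.9 (KO2) RPKM, with 61.4 (WT1) and 37.2 (WT2) RPKM in wild type, so the total Argonaute mRNA also overlapped between groups.

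**Figure D3:**
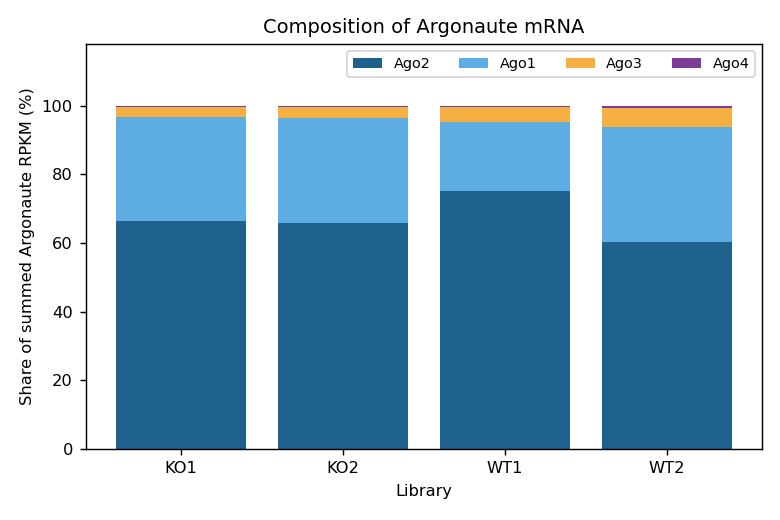
Share of each Argonaute in the summed Argonaute RPKM (percent, stacked to 100) in KO1, KO2, WT1 and WT2. Ago2 and Ago1 fill most of each bar, and Ago3 takes 2.99% to 3.35% in knockout and 4.45% to 5.67% in wild-type libraries.

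Ago2 and Tarbp2 lie on chromosome 15, whose 666 tested genes centred on a log2 fold change of 0.51 in knockout over wild type and on -0.61 in WT2 relative to WT1. The difference was larger around Ago2, where the 102 tested genes within 5 Mb had medians of 0.91 in knockout over wild type and -0.87 in WT2 relative to WT1. Ago2 shared the direction of its neighbours between the wild types, at -1.04, and against WT2, but not against WT1. Against WT1 Ago2 was at -0.64 and its neighbours at 0.56, and against WT2 Ago2 was at 0.39 and its neighbours at 1.4. Ago2 was thus below the median of its neighbourhood in both comparisons, and relative to that median its log2 fold change was -1.12 in place of -0.22. Tarbp2, with 135 tested neighbours at 0.69, was above that median by 0.31. Against WT1 Tarbp2 was at 0.52 and its neighbours at 0.42, and against WT2 Tarbp2 was at 1.72 and its neighbours at 1.02. Drosha, also on chromosome 15, had 31 tested neighbours at -0.20 in WT2 relative to WT1, and Drosha itself hardly differed between the wild types. These values are descriptions without a test, and the part of a chromosome-wide difference in the values of Ago2 and Tarbp2 was not tested.

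**Figure D4:**
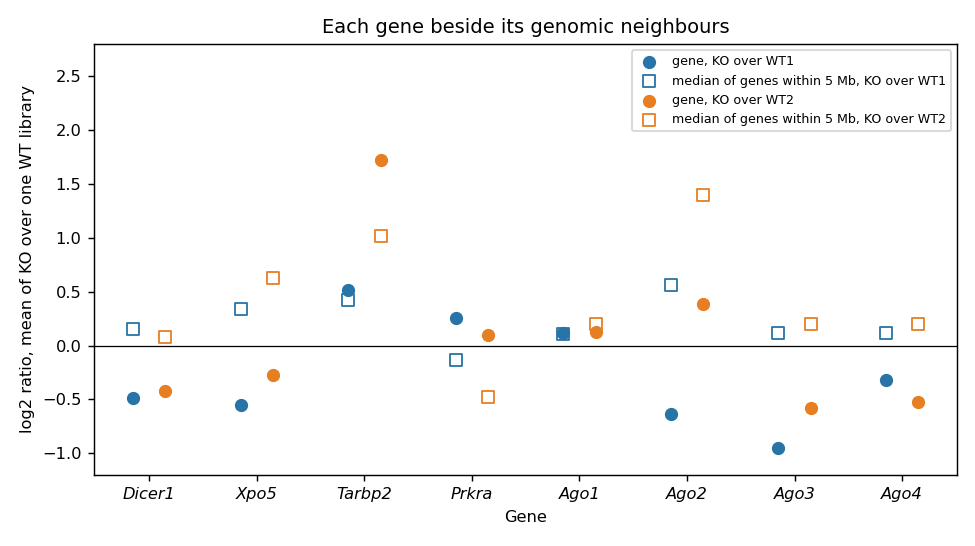
Log2 ratio of the knockout mean over WT1 (blue) and over WT2 (orange) for each of the 8 genes (filled circles), with the median of the tested genes within 5 Mb (open squares). Ago2 lies below its neighbours in both comparisons (-0.64 against 0.56, and 0.39 against 1.4), as do Dicer1, Xpo5, Ago3 and Ago4.

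Genes whose pattern over the 4 libraries came closest to Dicer1 or Ago2 were sought among 9321 other protein-coding genes with a mean log2 CPM of at least 3, by Euclidean distance of centred log2 CPM. Closest to Dicer1 were Fam136a (distance 0.026) and Adar (0.032), and Adar, which encodes an RNA-editing deaminase, had 61.7 (KO1) and 61.8 (KO2) CPM, with 86.2 (WT1) and 84.5 (WT2) CPM in wild type. Closest to Ago2 were Dapk1 (0.030) and the mitochondrial gene mt-Nd5 (0.073), neither of them on chromosome 15. Such a likeness rests on 4 libraries and, for Ago2, mostly on the gap between WT1 and WT2. It was sought on values before trend removal. After trend removal the log2 fold changes of Adar and Dicer1 were apart, at -0.76 ± 0.13 and -0.11 ± 0.09.

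Other genes of the pathway were taken from 4 lists of 39 genes in all, and all 39 were tested. These lists too were chosen with earlier results of these data known. Among them 3 rose, 2 fell and 34 did not pass, where 5.45% of all genes tested passed. Their median log2 fold change was -0.34, which became -0.13 after trend removal. All 5 calls were lost after trend removal, where edgeR called no gene of the whole table, though 17 of the 39 and 4300 of all genes still had an unadjusted p under 0.05. Of 8 Microprocessor and export cofactors, 1 rose, 1 fell and 6 did not pass. Dgcr8, whose own mRNA holds a hairpin that DROSHA is known to cut, rose by 1.10 ± 0.13 on the log2 scale. Drosha fell by 1.19 ± 0.11 (edgeR adjusted p = 0.0482 for each gene). That value, the smallest of any gene tested, was shared by other genes such as Ddx6 below. It therefore does not set Dgcr8 and Drosha apart. After trend removal Dgcr8 was at 1.33 ± 0.11 and Drosha at -1.35 ± 0.10, both farther from 0 than before (edgeR adjusted p = 0.092 each). Ran, whose GTP-bound form holds the hairpin on exportin-5, was at -0.01 ± 0.19 (edgeR adjusted p = 0.965). Of 9 chaperones and cochaperones of Argonaute loading none passed in edgeR or DESeq2 (5.45% and 22.7% of all genes). An unadjusted p under 0.05 in edgeR was reached by 5 of them, with 37.1% of all genes, and the smallest p belonged to Hsp90aa1. Hsp90aa1 was at 2650 (KO1) and 2744 (KO2) CPM, with 3680 (WT1) and 3714 (WT2) CPM in wild type. Its log2 fold change was -0.46 ± 0.12 (edgeR adjusted p = 0.0791), or -0.04 ± 0.13 after trend removal.

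Argonaute partners held the other 3 calls, with 2 of 11 higher, 1 lower and 8 not past the threshold. Mov10, which encodes a helicase found with Argonautes, rose to 218.5 (KO1) and 209 (KO2) CPM, with 105 (WT1) and 76.2 (WT2) CPM in wild type (log2 fold change 1.24 ± 0.20, edgeR adjusted p = 0.0499). Wtip, a LIM-domain gene of the Ajuba family, rose to 48.5 (KO1) and 42.5 (KO2) CPM, with 24.6 (WT1) and 24.2 (WT2) CPM in wild type (0.90 ± 0.14, edgeR adjusted p = 0.0499). Ddx6, which encodes a helicase of translational repression and decapping, fell to 249.9 (KO1) and 254 (KO2) CPM, with 475 (WT1) and 435 (WT2) CPM in wild type (-0.85 ± 0.12, edgeR adjusted p = 0.0482). After trend removal Mov10 was at 0.42 ± 0.09 and Ddx6 at -0.38 ± 0.12, and Wtip turned to -1.02 ± 0.25. Of 11 genes of RNA processing and turnover none passed in edgeR, where 5.45% of all genes did. An unadjusted p under 0.05 in edgeR was reached by 6 (37.1% of all genes), and 4 passed in DESeq2 (22.7% of its genes). Of the 11, 9 lay below 0, and the median was -0.47 (-0.43 after trend removal). Tut7, a uridylyltransferase gene, had the smallest p there, at 39.3 (KO1) and 39.7 (KO2) CPM, with 69.4 (WT1) and 62.6 (WT2) CPM in wild type (-0.74 ± 0.13, edgeR adjusted p = 0.0523).

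**Figure D5:**
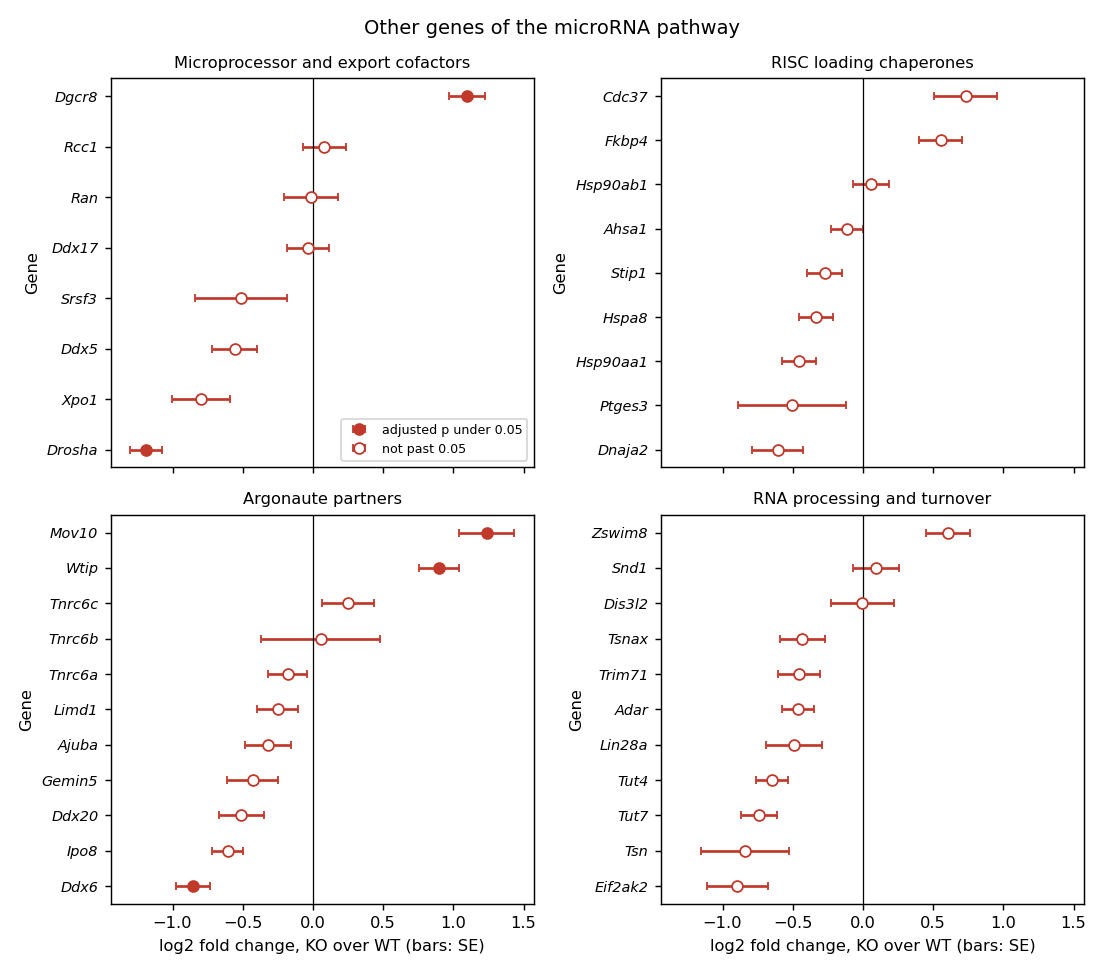
Fitted log2 fold change, knockout over wild type, of 39 other genes of the microRNA pathway in 4 lists, with bars of 1 SE and filled circles for an adjusted p under 0.05. The filled circles are Dgcr8 (1.10), Drosha (-1.19), Mov10 (1.24), Wtip (0.90) and Ddx6 (-0.85).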

How the data were processed

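Poly(A) RNA was taken up in Trizol and sequenced from TruSeq libraries with a reverse-stranded protocol, per the labels. The deposited values are raw read counts per Ensembl gene, made by the authors with STAR 2.4.2a and featureCounts 1.4.5-p1 on mm10, per the submitters' processing notes. Annotation release, strand setting and treatment of multiply mapped reads are not given in the sources used here, so shares of reads between near-copies are uncertain.

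Gene names covered 97.3% of identifiers. Coordinates, exon lengths and GC content (longest transcript) came from GENCODE M21 on the same build. The main test was edgeR 4.0.16 (R 4.3.3), quasi-likelihood, with TMM scaling, its own low-count filter (10 counts, total 15), no covariate, and p-values adjusted after Benjamini and Hochberg. Standard errors are the fold change divided by the root of its F. Log2 CPM used a prior count of 2. GC and length trends were lowess curves (span 0.3) of each library against the mean of all. DESeq2 1.42.0 was an alternative. The fit was also run on counts simulated with the same spread in both groups. The real pairs differed in spread, so that run does not show how the test behaves here. Figures used Python 3.11.15 and matplotlib 3.10.9.

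The genes, lists, rules and tests were chosen with earlier results of these data known. Named were the 8 genes, up to 2 raised and 2 lowered genes per list past the threshold or else the smallest p, array neighbours, nearest patterns and overlapping genes. Ran and the pseudogene Gm6088 were named after their values were seen. The pseudogene Gm18584, which is not among the genes counted, was named after its shared stretches were seen.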

Additional observations from a re-analysis of the deposited data

How the results depend on the processing

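None of the 8 genes passed with RLE scaling or with no or a stricter low-count filter (which drops Ago4), fits that did call other genes. Upper-quartile scaling, library totals and both trend-corrected fits called no gene of the whole table. The absence of calls among the 8 was therefore fixed in those fits and adds nothing. Fits with summed knockouts or with a knockout left out keep a single knockout library and are not counted here. DESeq2 called 1 of 8 (Ago3, -0.80). Without WT1 6 of the 8 passed and without WT2 7 did, where 77.7% and 68.0% of all genes tested passed. Most of the table passed in these fits, which keep a single wild-type library, so the counts do not set the 8 genes apart. Genes called over the whole table, 927 in the reported fit, numbered 3757 in DESeq2, 2663 without a filter, 1929 with the replicate block, 0 to 13658 with 1 library left out, and 0 with trends removed, with trends and block together, with summed knockouts, library totals or upper-quartile scaling (4300, 3227, 1888, 6116 and 6267 genes at an unadjusted p under 0.05). The 5 calls among other pathway genes became 11, 9 and 8 in DESeq2, without a filter and with the stricter one. They became 0 in those fits without any call. Without WT1, and also without WT2, 36 of the 39 passed, where 77.7% and 68.0% of all genes did. Library totals alone moved the median of all genes from -0.02 to 0.13. The number in the titles is not said to pair libraries, and deviations of same-numbered libraries correlated at 0.046 over genes. With that replicate block 0 of the 8 and 4 other pathway genes passed, where 1929 of 17022 genes were called.

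With 1 library left out, log2 fold changes ran from -0.48 to -0.42 for Dicer1, -0.54 to -0.27 for Xpo5, 0.52 to 1.72 for Tarbp2, 0.10 to 0.26 for Prkra, 0.11 to 0.16 for Ago1, -0.64 to 0.39 for Ago2, -0.93 to -0.56 for Ago3 and -0.68 to -0.19 for Ago4, and the median of the 8 from -0.41 to -0.09. Ago2 also turned with trends removed (0.03, and 0.09 with the block). The median of the 8 was then -0.04 and -0.01. Relative to the same chromosome, Dicer1 was at -0.30, Xpo5 at -0.71, Tarbp2 at 0.48, Ago1 at 0.05 and Ago2 at -0.73. Prkra was at 0.19, Ago3 at -0.85, Ago4 at -0.5 and the median of the 8 at -0.4. Relative to genes within 5 Mb, chosen after seeing the data, Dicer1 was at -0.55, Xpo5 at -0.91, Tarbp2 at 0.31 and Prkra at 0.50. In that setting Ago1 was at 0.07, Ago2 at -1.12, Ago3 at -0.84, Ago4 at -0.5 and the median at -0.52. Differences in share ran from -3.01 to 10.1 points for Ago1, -8.88 to 5.73 for Ago2 and -0.221 to 0.0295 for Ago4 with 1 library left out, and that of Ago2 was 0.395 with trends removed. The cause of these shifts was not tested. Depth limits Ago4, with 34 to 49 counts.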

Other observations

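Per length, Ago2 over Dicer1 was 2.73 (KO1) and 2.74 (KO2), with 3.04 (WT1) and 1.56 (WT2) in wild type. Ago2 over Ago1 was 2.21 (KO1) and 2.14 (KO2), with 3.69 (WT1) and 1.81 (WT2). Ago1 over Ago3 was 10.1 (KO1) and 9.17 (KO2), with 4.56 (WT1) and 5.90 (WT2), so that its groups did not overlap. Among single genes the groups did not overlap for 71.2% of all genes tested. These ratios were taken before trend removal, which left the log2 fold change of Ago1 at 0.12 and moved Ago3 from -0.77 to -0.17. Gm6088, a processed pseudogene on chromosome X that shares 50-base stretches with Ago2, had 9 (KO1) and 14 (KO2) counts, with 27 (WT1) and 5 (WT2) in wild type. The 8 genes had a median absolute log2 difference of 0.03 between the knockout libraries and 0.24 between the wild types, where all genes tested had 0.07 and 0.45.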
